A study of Mus musculus with 4 samples.

Results

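The genes described here are Ret, which encodes the receptor tyrosine kinase for glial cell line-derived neurotrophic factor, and 9 genes that act with it: the co-receptors Gfra1, Gfra2 and Gfra3, the ligands Gdnf and Nrtn, and the adaptors Dok4, Dok6, Shc1 and Frs2. They were chosen by symbol, and all 10 were found among the 27178 genes of the deposited table. The RNA came from crest-derived gut cells of Wnt1-tdT mice, taken at 11.5 days post coitum, in 2 libraries from the wavefront, the leading edge of the cells that colonise the gut, and 2 libraries from cells trailing 1 to 1.5 mm behind it. In both groups the cells carried the red tdT reporter, which in such mice marks the descendants of cells that expressed Wnt1, and they were sorted on it. The comparison asked how the mRNA of the 2 positions differed. The labels do not say whether the replicates came from separate embryos, litters or pools, so the p-values rest on library-to-library spread that could be purely technical.

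As background, GDNF and neurturin (the product of Nrtn) are secreted proteins that bind co-receptors held at the cell surface by a lipid anchor. GDNF prefers GFRα1, neurturin GFRα2 and artemin GFRα3, and each pair then activates RET. In the gut the mesenchyme around the crest cells supplies GDNF, while the crest cells carry RET and GFRα1, and signalling between them drives survival, division and migration. Phosphorylated RET binds adaptors such as SHC1, FRS2, DOK4 and DOK6, which lead to the ERK and PI3K-AKT pathways.

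Of the 10 genes, 8 had at least 1 read, 4 had reads in every library (Ret, Gfra1, Shc1 and Frs2) and 2, Nrtn and Dok6, had no read. The libraries were shallow, with 114972 to 452144 reads outside ribosomal RNA. Wavefront replicate 2 stood apart: it was the shallowest, ribosomal RNA took 55.5% of its reads against 15.6 to 26.1% in the other libraries, and its erythroid markers summed to 110 reads against 0 to 2. The sorted cells showed crest identity in each library, where 10 enteric crest markers outside the 10 genes (Sox10, Ednrb and Ngfr among them) summed to between 1583 and 2269 CPM outside ribosomal RNA (CPM are reads scaled to a common library total, here that of the reads outside ribosomal RNA). Mesothelium markers had no read.

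RNA of both ligands was at or near 0 in the sorted cells. For these 2 genes the bases just upstream of the start of transcription are shown, since they are the members with a RefSeq promoter entry (GRCm38.p6) whose 250 upstream bases hold no annotated exon. Entries existed for 5 of the 10 members (Gfra1, Gdnf, Nrtn, Shc1 and Frs2). Capitals mark matches to the motifs searched, on both strands. These were the GC box GGGCGG, the TATA box with the letters TATAAA, the CCAAT box, and the SOX family motif written as ACAAAG or, in its other form, as ACAATG; none of them contains another.

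Gdnf, chr15:7809798-7810047, plus strand, first of 2 listed starts: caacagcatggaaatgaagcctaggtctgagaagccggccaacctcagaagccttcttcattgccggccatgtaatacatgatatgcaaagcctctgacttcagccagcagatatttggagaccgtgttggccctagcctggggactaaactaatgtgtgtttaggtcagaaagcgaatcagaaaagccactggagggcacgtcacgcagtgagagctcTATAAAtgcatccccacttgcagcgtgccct

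Gdnf, chr15:7813477-7813726, plus strand, the other listed start: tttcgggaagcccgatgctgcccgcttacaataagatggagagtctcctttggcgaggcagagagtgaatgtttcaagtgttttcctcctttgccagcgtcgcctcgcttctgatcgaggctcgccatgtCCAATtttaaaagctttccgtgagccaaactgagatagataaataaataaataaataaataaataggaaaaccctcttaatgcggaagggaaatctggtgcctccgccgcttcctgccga

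Nrtn, chr17:56757549-56757798, minus strand: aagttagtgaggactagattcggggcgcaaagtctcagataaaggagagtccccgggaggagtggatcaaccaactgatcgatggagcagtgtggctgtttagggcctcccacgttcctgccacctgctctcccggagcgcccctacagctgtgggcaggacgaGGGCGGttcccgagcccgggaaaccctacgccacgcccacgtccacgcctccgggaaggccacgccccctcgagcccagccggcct

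The first Gdnf window held a single TATAAA, at position -31 from the start, and no other motif of the search. The window of the other Gdnf start held no TATAAA and a single CCAAT, at position -120. TATAAA is in 12.4% and CCAAT in 33.8% of the 32851 windows of this length in the RefSeq table. The Nrtn window held a single GGGCGG at position -86, a motif found in 32.7% of the windows, and no TATAAA. Neither SOX motif, which 16.5% and 10.7% of the windows hold, was found in any of the members' windows. Such matches describe letters and not sites of binding.

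Gdnf had 0 reads in trailing replicates 1 and 2 and wavefront replicate 1, and 2 reads in wavefront replicate 2, where they amounted to 17.4 CPM outside ribosomal RNA (95% exact binomial interval 2.11 to 62.8). Reads carried no molecular identifiers, so intervals and floors here cover counting error only. A single library thus held all reads of Gdnf, and it is the same library in which 13 gut mesenchyme markers (Col3a1, Des and Pdgfra among them) summed to 1339 CPM outside ribosomal RNA, against 230 and 236 in the trailing libraries and 504 in wavefront replicate 1. Of those 13 markers 10 had a read, and Nkx3-2, Myh11 and Barx1 had none. Not all were highest with Gdnf: Des had 73 reads in wavefront replicate 1 against 10 in wavefront replicate 2. Col3a1 gave 94 of the 154 marker reads of wavefront replicate 2. The part of these 13 markers in the Gdnf reads was not tested. Nrtn had 0 reads in all libraries, which allows up to 6.64 CPM outside ribosomal RNA in the deepest library and 26.1 in the shallowest (3 reads of the total). At this depth no difference in either ligand was detectable. In limma on log2(CPM + 1), where CPM are the deposited values, Gdnf was at 1.56 ± 1.19 SE on the log2 scale, wavefront over trailing (limma adjusted p = 0.786). Gdnf passed the limma filter on mean CPM only through the 2 reads of wavefront replicate 2. Without wavefront replicate 1 it was at 3.12, a fit that sets those 2 reads against 0 in both trailing libraries. With a pseudocount of 5 CPM it was at 0.67.

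Ret was among the most abundant messages of these cells. By reads it ranked 38 and 52 among genes outside ribosomal RNA in trailing replicates 1 and 2, and 27 and 54 in wavefront replicates 1 and 2. It lies on chromosome 6 (118151745 to 118197718, GRCm38, minus strand; Entrez 19713, ENSMUSG00000030110), and no other annotated gene shares its exons. Its reads numbered 864 and 545 in trailing replicates 1 and 2, and 1413 and 155 in wavefront replicates 1 and 2. As deposited CPM these were 1671 and 1205 trailing against 2602 and 596 at the wavefront, and outside ribosomal RNA 2235 and 1648 against 3125 and 1348. The wavefront libraries held the highest and the lowest value on each of these scales, so the trailing values lay between them.

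The 2 wavefront libraries differed in Ret by 4.37-fold in deposited CPM and by 2.62-fold after TMM scaling (a scaling of library totals that sets most genes level), against 1.39-fold and 1.43-fold between the trailing libraries. Scaled Ret averaged 1639 ± 1038 CPM in the wavefront libraries against 1389 ± 349 in the trailing pair (SD, n = 2 each). The log2 fold change of Ret, wavefront over trailing, was -0.19 ± 0.94 SE in limma (95% interval -2.46 to 2.08, limma adjusted p = 0.984). In edgeR's quasi-likelihood test on the recovered reads it was 0.25 ± 0.41 (interval -0.57 to 1.07, edgeR adjusted p = 0.908). Both intervals span 0. The sign rested on single libraries: in edgeR the value was -0.62 without wavefront replicate 1 and 0.82 without wavefront replicate 2.

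**Figure D1:**
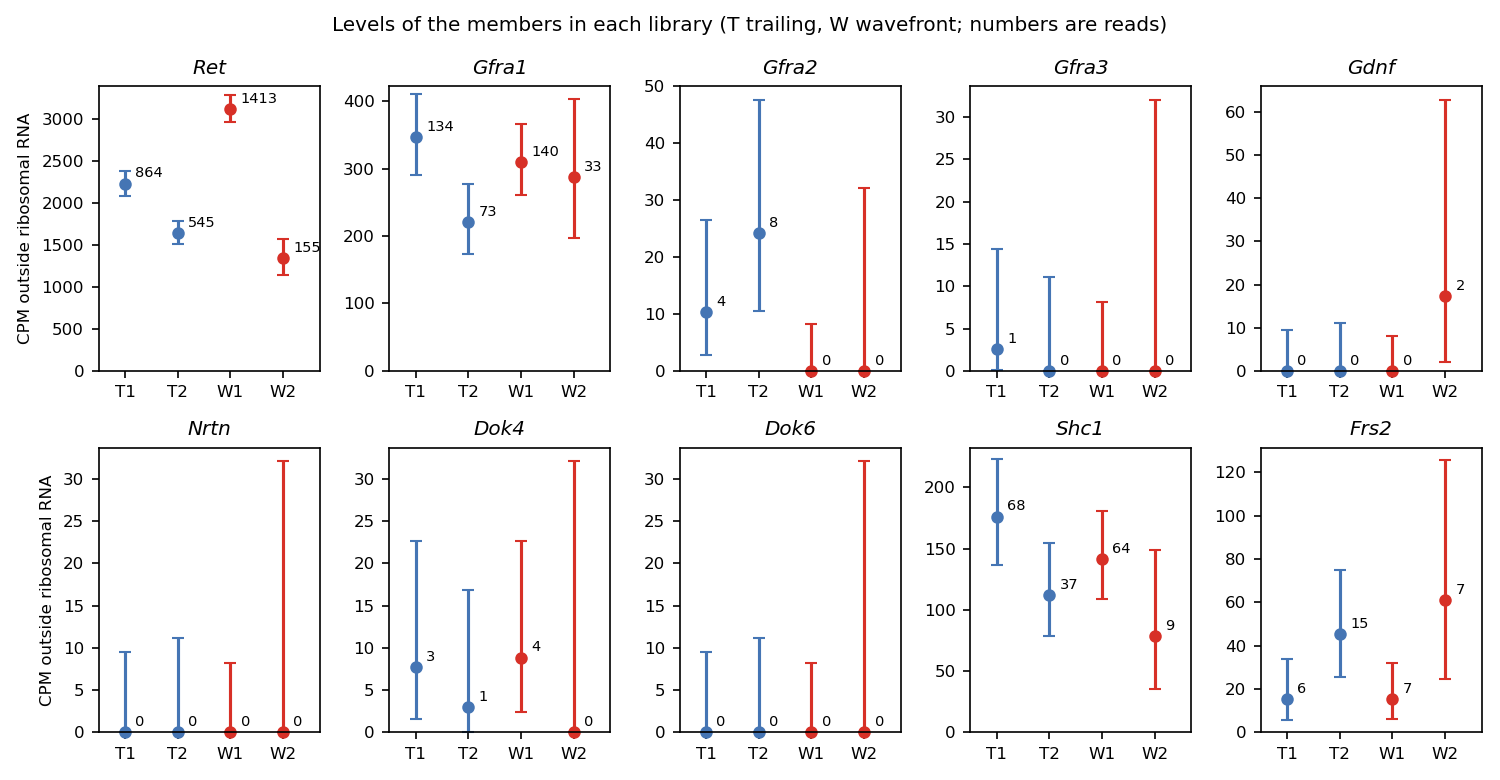
Level of each of the 10 genes in each library, in CPM outside ribosomal RNA on linear axes that start at 0, with trailing libraries (T1, T2) in blue and wavefront libraries (W1, W2) in red. Bars are 95% exact binomial intervals and the numbers beside the points are reads; the Ret points of the wavefront libraries lie above and below the trailing ones, and Gfra2 has reads in the trailing libraries only.

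Gfra1, the co-receptor that GDNF prefers, was the other surface component found at a substantial level. It lies on chromosome 19 (58235604 to 58455909, minus strand; Entrez 14585), where 416 bases of its exons overlap the antisense gene Gm16277, which was not analysed here. Gfra1 reads numbered 134 and 73 behind the wavefront against 140 and 33 in it, or 347 and 221 against 310 and 287 CPM outside ribosomal RNA. Outside ribosomal RNA both wavefront values lay between the trailing ones. In deposited CPM wavefront replicate 2, at 127, lay below the trailing values of 259 and 161, and wavefront replicate 1, at 258, lay between them. Scaled Gfra1 averaged 214 ± 29.9 CPM in the wavefront libraries against 203 ± 71.3 in the trailing pair (SD, n = 2 each). The log2 fold change was -0.18 ± 0.51 SE in limma (95% interval -1.42 to 1.06, limma adjusted p = 0.962) and 0.09 ± 0.31 in edgeR (interval -0.54 to 0.72, edgeR adjusted p = 0.962).

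Ratios within a library do not depend on its total or its share of ribosomal RNA. Ret had 6.45 and 7.47 reads for each Gfra1 read in trailing replicates 1 and 2 (95% intervals 5.37 to 7.79 and 5.84 to 9.67). At the wavefront it had 10.1 in replicate 1 (8.48 to 12.1) and 4.70 in replicate 2 (3.21 to 7.06). As in the levels, the wavefront libraries lay on either side of the trailing ones, and their own intervals did not overlap. Against the summed reads of the 10 crest markers, Ret had 0.985 and 0.846 reads per marker read in trailing replicates 1 and 2. It had 1.46 in wavefront replicate 1 and 0.852 in wavefront replicate 2. Wavefront replicate 1 thus stood above the other 3 libraries in Ret per crest marker read. The same ratio for Gfra1 was 0.153 and 0.113 behind the wavefront against 0.144 and 0.181 in it, with intervals that overlap (0.126 to 0.183, 0.0877 to 0.145, 0.120 to 0.173 and 0.121 to 0.264).

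Gfra2, the co-receptor that neurturin prefers, was found in trailing cells only, at a low level. It lies on chromosome 14 (70890120 to 70979838, plus strand; Entrez 14586) with no annotated gene over its exons. Trailing replicates 1 and 2 held 4 and 8 reads of it and neither wavefront library held any, or 10.3 and 24.2 CPM outside ribosomal RNA against 0 and 0. The groups did not overlap. With the pooled wavefront reads set at the floor of 3 reads, the pooled trailing level was 3.05-fold that of the wavefront after scaling. With the counting error of both groups the ratio could be as low as 2.12. Neither value takes in the spread between libraries of a group. Wavefront replicate 2 alone sets no bound, since its floor of 26.1 CPM outside ribosomal RNA lies above both trailing values. Gfra2 took 12 of 220 co-receptor reads in trailing cells (5.45%, 95% exact binomial interval 2.85 to 9.33%) and 0 of 173 at the wavefront, which allows a share of up to 1.73% by the floor of 3 reads and 2.11% by the exact binomial interval.

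Gfra2 stayed below the filter of the count test. In limma it was at -3.68 ± 0.84 SE on the log2(CPM + 1) scale (95% interval -5.69 to -1.66), with an unadjusted p of 0.00391 and a limma adjusted p of 0.680. Gfra2 passed the limma filter on mean CPM only through its trailing reads. Its wavefront values were both 0 and had no spread, so the SE, interval and p can understate the error. With no wavefront reads the size of the log2 fold change follows the pseudocount, and it was -4.61 with 0.5 CPM and -1.77 with 5 CPM. With no filter on low counts the edgeR adjusted p was 0.135. It was the 1 member of 7 tested by limma whose groups did not overlap, and of all genes tested by limma 37% had groups that did not overlap, 30.1% with the wavefront lower. Enteric neuron markers moved the same way: 7 of them (Elavl4, Tubb3, Stmn2, Uchl1, Prph, Dbh and Th) gave summed levels of 3798 and 4159 CPM behind the wavefront, outside ribosomal RNA, against 1051 and 905 in it. All 7 had reads, and 6 of the 7 were lower at the wavefront in edgeR. Their part in the Gfra2 reads was not tested, and in these bulk libraries fewer cells of a type cannot be told apart from less RNA per cell.

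Gfra3, the co-receptor that artemin prefers, had 1 read, in trailing replicate 1. Gfra1 therefore gave 96.4% and 90.1% of the co-receptor reads in trailing replicates 1 and 2 (95% intervals 91.8 to 98.8% and 81.5 to 95.6%). It gave all of them at the wavefront, 140 of 140 and 33 of 33. Per kilobase of exon the Gfra1 share in the trailing libraries was 93.8% and 85.5%. The intervals of the wavefront libraries reached down to 97.4% and 89.4%. That of replicate 1 overlapped the interval of trailing replicate 1, and that of replicate 2 overlapped both trailing intervals.

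**Figure D2:**
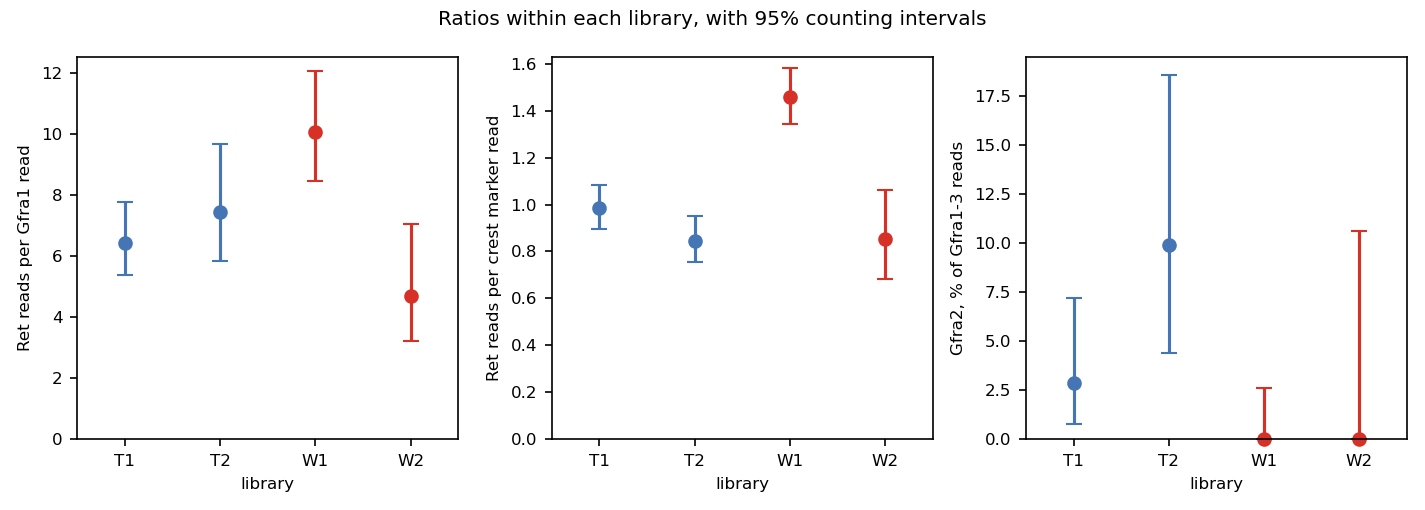
Ratios within each library, with trailing libraries (T1, T2) in blue and wavefront libraries (W1, W2) in red: Ret reads per Gfra1 read, Ret reads per read of the 10 crest markers, and Gfra2 as a percentage of Gfra1, Gfra2 and Gfra3 reads, each with its 95% exact binomial interval. Wavefront replicate 1 is the highest in both Ret ratios (10.1 and 1.46), and both wavefront libraries are at 0 for Gfra2.

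Among the adaptors, Shc1, which recruits GRB2 and so links RET to RAS, had the most reads. It lies on chromosome 3 (89418443 to 89430027, plus strand; Entrez 20416). Shc1 reads numbered 68 and 37 behind the wavefront against 64 and 9 in it, or 176 and 112 against 142 and 78.3 CPM outside ribosomal RNA. The groups overlapped. Scaled Shc1 averaged 80.0 ± 38.8 CPM in the wavefront libraries against 103 ± 36.2 in the trailing pair (SD, n = 2 each). The log2 fold change was -0.69 ± 0.64 SE in limma (95% interval -2.22 to 0.85, limma adjusted p = 0.804) and -0.22 ± 0.33 in edgeR (interval -0.89 to 0.46, edgeR adjusted p = 0.908).

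Frs2, a membrane-anchored docking protein shared by RET and the fibroblast growth factor receptors, lies on chromosome 10 (117069427 to 117148534, minus strand; Entrez 327826). Its reads numbered 6 and 15 behind the wavefront against 7 and 7 in it, or 15.5 and 45.4 against 15.5 and 60.9 CPM outside ribosomal RNA. Replicate 1 was low and replicate 2 high in each group, so the spread within a group exceeded the difference between groups. The log2 fold change was -0.08 ± 0.69 SE in limma (limma adjusted p = 0.988) and -0.11 ± 0.62 in edgeR (95% interval -1.34 to 1.13, edgeR adjusted p = 0.978).

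Dok4 and Dok6, docking proteins that RET phosphorylates, were hardly seen. Dok4 (chromosome 8, 94863828 to 94876330) had 3 and 1 reads behind the wavefront against 4 and 0 in it, and limma gave -0.69 ± 1.19 SE (limma adjusted p = 0.925). Of its exons 953 bases overlap Polr2c, which lies on the other strand and had 30, 27, 21 and 5 reads. The library kit does not mark strand, so reads of overlapping exons cannot be told apart. Dok6 (chromosome 18, 89292424 to 89769528) had 0 reads in all libraries.

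In CPM outside ribosomal RNA per kilobase of exon, the order of Ret, Gfra1 and Shc1 was the same in each library. Ret ranged from 199 to 462, Gfra1 from 40.3 to 63.3 and Shc1 from 13.9 to 31.2, and none of these ranges overlapped. Frs2 (1.77 to 6.96), Gfra2 (0 to 6.84), Gdnf (0 to 4.73), Dok4 (0 to 2.90) and Gfra3 (0 to 1.30) followed, with ranges that overlap, so no order could be read among them. Nrtn and Dok6 were at 0.

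In the tests over all genes 0 of the 4 members past the count filter were called by edgeR, where 1.74% of the 5759 genes tested were called (0.399% higher and 1.34% lower at the wavefront). limma called 0 of 7 members and 0% of 12519 genes. At an unadjusted p under 0.05 there were 0 of 4 members in edgeR, where 9.9% of genes tested passed. In limma there was 1 of 7, where 6.85% of genes tested passed. That member was Gfra2, which passed the filter only through its trailing reads and had no wavefront spread, so its p is no support. Gdnf, also among the 7, passed the filter only through the reads of a single library. None of the 4 members in edgeR had groups that did not overlap, against 39.1% of the genes tested. By DESeq2, 0.396% of 3789 genes with an adjusted p were called (0.0792% higher and 0.317% lower). Adjustment of the p-values that the authors' deposited table lists called 0.0891% of 14589 genes (0.0206% higher and 0.0685% lower). No member was called by either. In the authors' deposited table Ret was at a log2 fold change of 0.23 with an unadjusted p of 0.538. Gfra1 was at 0.07 with 0.844 and Gfra2 at -0.55 with 0.122. Deposited sizes can lie nearer 0 than refits: the pathway gene Hoxb5 was at -1.54 there, against -2.59 in DESeq2 on recovered reads. The deposited -0.55 of Gfra2 is therefore not comparable in size with the limma value. The median of all genes was -0.35 in limma and 0.01 in edgeR.

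**Figure D3:**
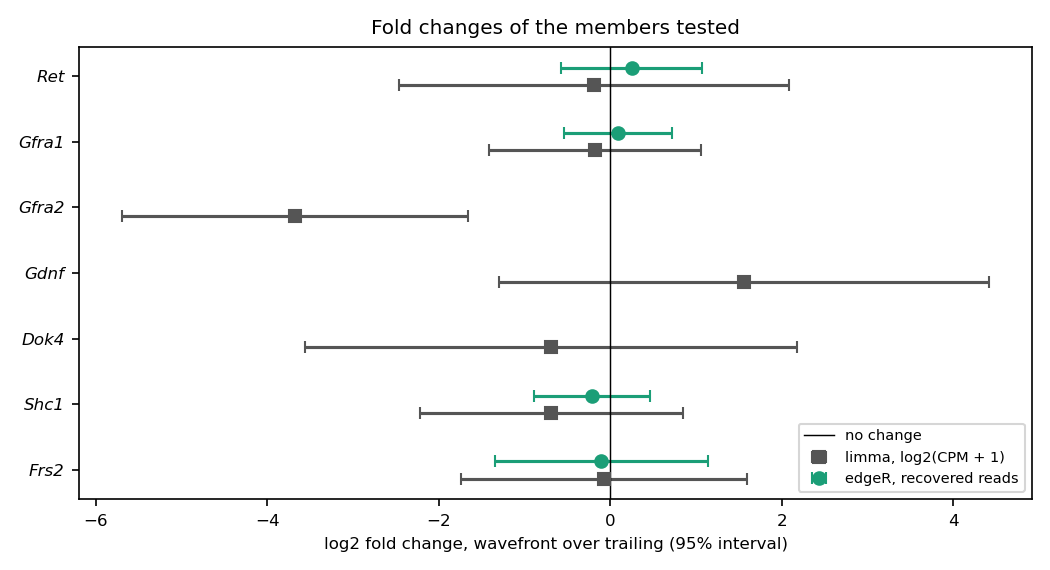
Log2 fold changes, wavefront over trailing, of the 7 members tested by limma (grey squares) and the 4 tested by edgeR (green circles), with 95% intervals. All intervals cross 0 except that of Gfra2 in limma, which spans -5.69 to -1.66 and had an adjusted p of 0.680. Gfra2 had 0 reads in both wavefront libraries, so that interval holds no spread between them.

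The genes whose pattern over the 4 libraries was most like that of Ret were Stard7, Phactr4, Esyt1, Nsun2 and Cdc14b, with a root mean square difference of centred log2 CPM from 0.02 to 0.05. The median over 5758 genes was 0.61. For Gfra1 they were Prps1l3, Arfgef1, Tmem201, Anapc5 and Gdi2, at 0.03 to 0.04 against a median of 0.42. Ret and Gfra1 differed from each other by 0.40. The 4 points of each gene share their libraries' depth and scaling, and the likeness is a description only.

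Other genes of the pathway were read from 6 lists of 92 genes, of which 49 were past the count filter and 1 was called by edgeR. Over all 5759 genes tested edgeR called 1.74%, so 1 call among 49 is near that share. Of the other ligands and receptors (7 genes), only Pspn, with 1 read, Ncam1 and Sdc3 had any reads. Ncam1, a neural adhesion molecule that can act as a GDNF receptor with GFRα1, had 45 and 64 trailing reads against 31 and 13 (-0.88 ± 0.35 SE, edgeR adjusted p = 0.316). The syndecan Sdc3, which binds GDNF through heparan sulfate, was at 0.02 ± 0.32. Artn, Gdf15, Gfra4 and Gfral had no read.

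Among 29 other docking proteins and adaptors 11 were tested by counts and 0 passed, with a median log2 fold change of 0.02 against 0.01 over all genes. Grb10, an adaptor that binds RET and the insulin receptor, was the most abundant, with 1122 and 680 trailing reads against 1031 and 250 (-0.15 ± 0.39 SE, edgeR adjusted p = 0.950). Irs1, the insulin receptor substrate, was at 1.11 ± 0.47 (edgeR adjusted p = 0.397). It was at 0.038 without wavefront replicate 1 and 1.45 without wavefront replicate 2, each a fit with a single wavefront library. The phospholipase Plcg1 was at 0.67 ± 0.37, the adaptor Crkl at 0.26 ± 0.37 and the phosphatase Ptpn11 at -0.10 ± 0.36, and none passed.

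In the ERK arm 10 of 15 genes were tested and 0 passed, with a median of 0.00 and 5 on each side of 0. Nras reads numbered 164 and 144 behind the wavefront against 285 and 27 in it (0.14 ± 0.34 SE), the wavefront libraries again lying above and below the trailing ones. The kinases Map2k1 and Araf were at 0.27 ± 0.31 and -0.56 ± 0.52, and the RAS inhibitor Nf1 at 0.56 ± 0.54. In the PI3K-AKT arm 13 of 18 were tested and 0 passed, with a median of 0.00. Rac1, a GTPase of cell protrusion, had 50 and 45 trailing reads against 184 and 9 (1.12 ± 0.37 SE, edgeR adjusted p = 0.126). Without wavefront replicate 1 Rac1 was at -0.84, and without wavefront replicate 2 at 1.76, each a fit with a single wavefront library. After scaling its wavefront libraries were at 309 and 52.6 CPM. Akt2 was at 0.78 ± 0.46, Pdpk1 at -0.60 ± 0.46, and the GTPases Rhoa and Cdc42 at -0.07 ± 0.33 and 0.00 ± 0.35.

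Of 13 genes that restrain RET or ERK signalling 8 were tested and 0 passed. Of these 8 genes 7 lay above 0 (median 0.29), where 2912 of all 5759 genes tested did (median 0.01). The list was chosen with earlier results of these data known, so this count is a description only. Dusp6, an ERK phosphatase that ERK activity itself induces, had 204 and 152 reads behind the wavefront against 479 and 130 in it. After scaling it went from 352 ± 47.9 to 782 ± 31.7 CPM (SD, n = 2 each; 1.15 ± 0.34 SE, edgeR adjusted p = 0.0718). The scaled groups did not overlap, as in 39.1% of all genes tested by edgeR, 18.3% with the wavefront higher. Dusp6 was at 1.32 and 1.02 without trailing replicates 1 and 2, and at 1.11 and 1.24 without wavefront replicates 1 and 2. Such fits keep a single library in a group, so no p is given for them. With scaling by library size alone Dusp6 was at 0.90 (edgeR adjusted p = 0.99996). Spry4, a Sprouty inhibitor of receptor tyrosine kinase signalling, had 19 and 11 against 37 and 15 reads (1.23 ± 0.40 SE, edgeR adjusted p = 0.123). Sh3kbp1, which links the ubiquitin ligase CBL to endocytosis, was at -0.97 ± 0.40 (edgeR adjusted p = 0.357) and the phosphatase Ptprf at 0.04 ± 0.32.

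Of 10 transcription factors known to act on Ret 5 were tested and 1 passed, where 1.74% of all genes tested did. Of these 5 genes 4 lay below 0 (median -0.64), where 2847 of all 5759 genes tested did (median 0.01). This list too was chosen with earlier results known, and the count is a description only. Hoxb5, a homeobox factor, fell from 99.7 ± 33.9 to 15.1 ± 4.80 scaled CPM (SD, n = 2 each; -2.54 ± 0.43 SE, edgeR adjusted p = 0.000117), but was not called by DESeq2 (adjusted p = 0.177) or from the authors' deposited p-values (adjusted p = 0.549). The crest factor Sox10 was at -1.02 ± 0.45 and the retinoic acid receptor Rarb at -0.64 ± 0.33, and neither passed.

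**Figure D4:**
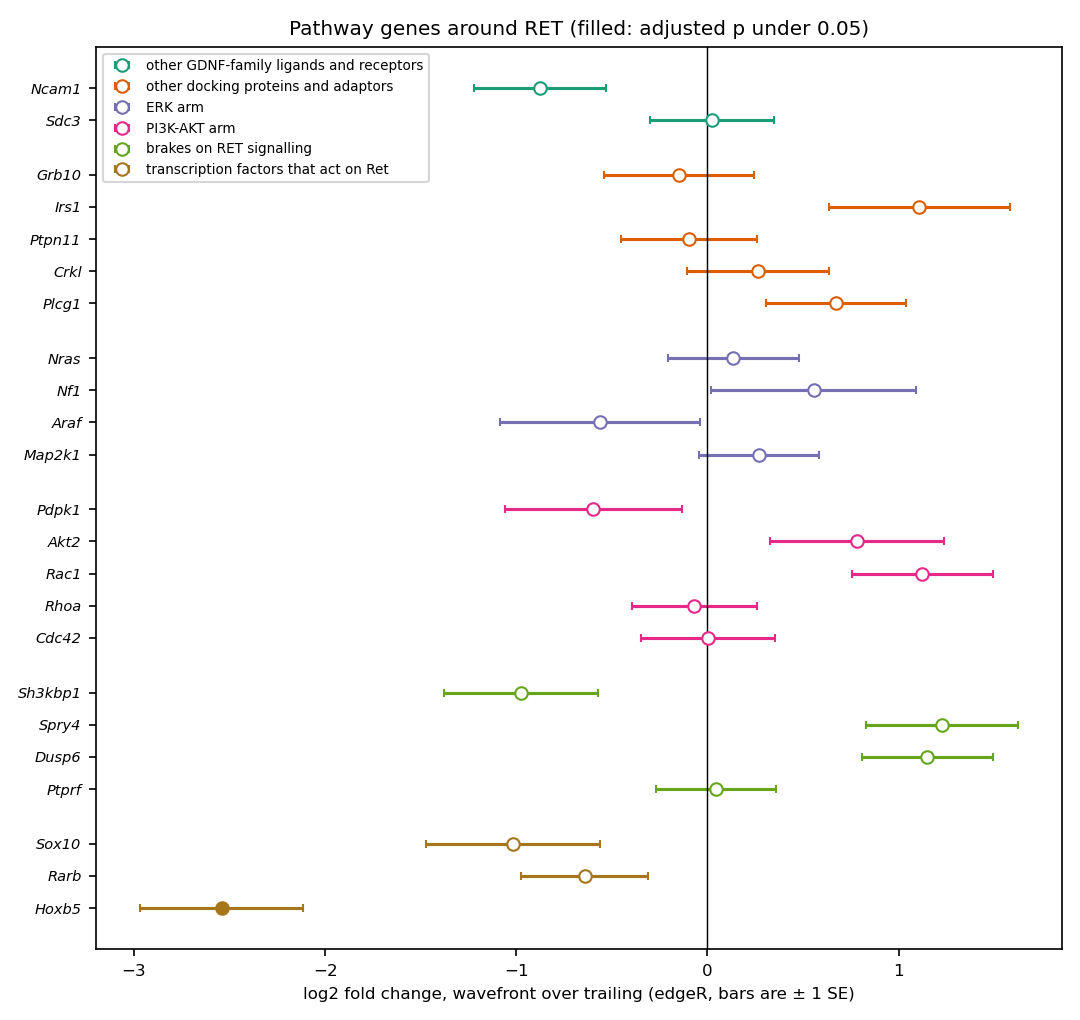
Log2 fold changes in edgeR, wavefront over trailing, of the pathway genes named in the text, coloured by list, with bars of 1 SE. Hoxb5 is the 1 filled point (adjusted p under 0.05), and Dusp6 and Spry4 lie at 1.15 and 1.23 without passing.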

How the data were processed

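mRNA was measured in 4 libraries, 2 per position. Per the labels' protocols, gut tissue was dissociated and sorted for tdT, Trizol served for RNA isolation and Nextera XT, which does not keep strand, for the libraries. The submitters' processing notes name STAR 2.5.2b, featureCounts, DESeq2, FastQC 0.11.9 and bcl2fastq 2.17, with GRCm38 (mm10) as build. The sources used here give neither the annotation release nor the counting settings.

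The authors deposited CPM per library, per the file headers. All values (100%) were whole multiples of that of 1 read within 0.01 reads, so whole reads were recovered, with library totals of 517000, 452142, 543070 and 260217 (trailing replicates 1 and 2, then wavefront 1 and 2). In that order a read equals 1.93, 2.21, 1.84 and 3.84 CPM. The deposited base mean, a signal per the file headers, was not used. The deposited fold changes and standard errors are on the log2 scale, the deposited Wald statistic is a score, and the deposited p-value is unadjusted.

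Identifiers repeated on 428 rows were kept once. Ribosomal RNA was 31 rows. The planned test for CPM was limma 3.58.1 on log2(CPM + 1), its prior variance following the mean, over genes whose mean exceeded 1 CPM, so a fold change there is on the log2(value + 1) scale and understates low genes. Beside it, edgeR 4.0.16 (quasi-likelihood, TMM, filterByExpr with 10 reads) was run on recovered reads, and DESeq2 1.42.0 as an alternative, under R 4.3.3. Location was the only term. Tests were two-sided, with Benjamini-Hochberg adjustment over all genes tested and a threshold of 0.05. The scripts were tested on simulated data. Positions and exon lengths are those of GENCODE M21, on the same build.

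The members and lists were chosen with earlier results of these data known. All 10 members are named. From each pathway list the genes past the edgeR threshold, the 3 largest absolute fold changes and the 2 highest mean CPM are named, and for likeness the 5 nearest genes; a few genes that this rule names are not reported here. Per library, endothelium markers summed to 5 to 17 reads, leukocyte markers to 1 to 5 and gut epithelium markers to 3 to 12. Outside ribosomal RNA the gut epithelium sums were 7.76 and 9.07 CPM in the trailing libraries. They were 26.5 and 78.3 CPM in wavefront replicates 1 and 2. Alternatives covered pseudocount, filter, scaling, tool, replicate block and each library left out.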

Additional observations from a re-analysis of the deposited data

How the results depend on the processing

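Under all alternatives run, 0 members were called, by limma (10 settings) or edgeR (11 settings). The sign of Ret, Gfra1 and Frs2 in limma turned with scaling: 0.10, 0.11 and 0.20 with size factors and 0.10, 0.11 and 0.21 over rows other than ribosomal RNA. In edgeR Gfra1 was at -0.13 with scaling by library size alone, and Frs2 at 0.17 in DESeq2, 0.071 in the authors' deposited table and 0.23 with a replicate block. Leaving out each library in turn, limma gave -1.25 to 0.87 for Ret, -0.69 to 0.33 for Gfra1, -2.22 to 0.84 for Dok4, -1.56 to 0.18 for Shc1, -0.80 to 0.64 for Frs2, 1.56 to 3.12 for Gdnf and -4.22 to -3.13 for Gfra2. Without wavefront replicate 2 Gdnf had no reads and gave no value. edgeR gave -0.62 to 0.82 for Ret, -0.23 to 0.53 for Gfra1, -0.98 to 0.21 for Shc1 and -0.77 to 0.96 for Frs2. The limma median of all genes was -0.35 on deposited CPM, -0.06 with size factors and -0.09 over rows other than ribosomal RNA. The cause of the turns in sign was not tested.

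Of the other pathway genes, scaling by library size alone gave -0.20 for Sdc3, -0.011 for Nras, -0.20 for Cdc42 and -0.18 for Ptprf. DESeq2 and the authors' deposited table gave -0.031 and -0.022 for Sdc3 and 0.049 and 0.034 for Ptpn11. With the replicate block Sdc3 was at -0.036, Nras at -0.017 and Cdc42 at -0.011. Leaving out each library, edgeR ranges that cross 0 were -0.58 to 0.30 for Sdc3, -0.41 to 0.19 for Grb10, -0.56 to 0.63 for Ptpn11, -0.95 to 0.70 for Nras, -1.42 to 0.0097 for Araf, -0.13 to 0.56 for Map2k1, -0.29 to 1.72 for Akt2, -0.84 to 1.76 for Rac1, -0.58 to 0.28 for Rhoa, -0.29 to 0.30 for Cdc42 and -0.072 to 0.21 for Ptprf.

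limma called 0 genes, and 3 with a pseudocount of 5 CPM, 5 with no filter on low values, 9 with size factors, 4 over rows other than ribosomal RNA, 52 with a replicate block and 0 leaving out each library. edgeR called 100, and 15 in DESeq2, 13 from the authors' p-values, 61 with a replicate block and 40 to 143 leaving out each library (143 without wavefront replicate 2). Replicate numbers do not pair the libraries by any label, and deviations of same-numbered libraries correlated at 0.07 over 5759 genes. With the block Dusp6 passed (1.15, edgeR adjusted p = 0.0244).

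The wavefront minus trailing difference in the Gfra1 share of co-receptor reads was 6.74 percentage points. Leaving out a trailing library gave 9.88 (replicate 1) and 3.60 (replicate 2). Leaving out a wavefront library could not move it, since both stood at 100%. The difference in log2 Ret reads per Gfra1 read was -0.01, and -0.56 to 0.54 leaving out each library. Ligand shares were not computed, since only Gdnf had reads. Depth limits Gfra2, Gfra3, Dok4, Frs2 and both ligands, at 0 to 15 reads a library.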
